A study of Mus musculus with 20 samples.

Results

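Transcripts of 8 myelin genes, *Mbp*, *Mobp*, *Cnp*, *Mag*, *Mog*, *Cldn11*, *Mal* and *Sox10*, were followed in microglia sorted from mouse spinal cord. They were taken by symbol from the table of normalised counts, and all 8 of the 8 symbols were found among its 16810 genes. The cells came from CX3CR1+/eGFP mice, in which 1 copy of the fractalkine receptor gene is replaced by a green fluorescent protein. They were gated on high eGFP, and their polyadenylated RNA was sequenced. Non-injured (NI) mice gave 3 libraries. A lateral hemisection (HS) of the thoracic spinal cord gave 3 libraries after 72 h, 2 after 1 week and 3 after 2 weeks, and a full transection (FT) gave 3 libraries at each of these times, which makes 17 injured libraries among 20. All mice were adult males of the same genotype, heterozygous for the reporter, so that the NI mice carry the reporter as well. Blood monocytes also carry the reporter, and an eGFP-high cell of an injured cord may therefore be a macrophage that came from blood. The study's methods name more mice than libraries, so that a library held RNA of several animals. Cells were spun through sucrose to remove myelin before they were sorted.

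Myelin is the spiral of glial membrane around axons, which oligodendrocytes make in the central nervous system. Its compact layers are held together by basic proteins and proteolipids, whereas the inner and outer edges hold adhesion molecules, tight junctions and enzymes. Microglia and macrophages are not known to make myelin, but they take up myelin debris after injury to the spinal cord, and mRNA of *Mbp* and *Mobp* is known to travel into oligodendrocyte processes and to lie within myelin itself. In these bulk libraries, fewer cells of a type and less RNA per cell cannot be told apart. The p-values measure the spread between these libraries.

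Libraries held between 3872918 and 34099232 reads on the listed genes, and between 6040762 and 13937586 in NI. A single read was worth 0.0330 to 0.292 CPM, the read count scaled by library size that is the unit of all levels here, and such limits cover counting error only. The 10 microglia markers examined (*Cx3cr1*, *P2ry12*, *Tmem119*, *Csf1r* and others) summed to between 17322 and 35342 CPM per library, and the 8 myelin transcripts to between 403 and 1963 CPM. A pair of libraries stood apart. The sum of the 8 transcripts was lowest in FT 2 weeks replicate 1 (403 CPM) and HS 2 weeks replicate 1 (426 CPM), and each of the 8 transcripts reached its lowest level of the 20 libraries in one or the other. The replicate with the highest sum, 1963 CPM, was FT 2 weeks replicate 2, of the same group as the lowest. Summed levels of the 12 astrocyte markers were also lowest in HS 2 weeks replicate 1 (185 CPM) and FT 2 weeks replicate 1 (194 CPM), and those of the 13 neuron markers in FT 2 weeks replicate 1 (19.9 CPM) and HS 2 weeks replicate 1 (23.1 CPM). The part of these other cell markers in the results below was not tested, and the changes at 2 weeks are given with and without the replicate 1 library of their group.

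In NI libraries the transcripts differed widely in level. Per kilobase of exon, *Mbp* was highest at 84.0 ± 23.6 CPM (SD, n = 3), and *Cnp* followed at 42.0 ± 11.6 CPM. *Mog* (21.5 ± 13.8), *Cldn11* (20.9 ± 11.5), *Mal* (15.7 ± 6.75) and *Mag* (10.4 ± 2.27 CPM per kilobase, SD, n = 3 each) came next, and the ranges of neighbours in this order overlapped. *Mobp* had 5.22 ± 1.71 and *Sox10* had 1.14 ± 0.309 CPM per kilobase (SD, n = 3 each). The NI ranges of *Mbp* and *Cnp*, of *Mag* and *Mobp*, and of *Mobp* and *Sox10* did not overlap. Lengths are those of all exons of a gene joined, so that a gene read mostly as a short isoform is placed too low. Among NI libraries, replicate 3 was lowest for all 8 transcripts and replicate 1 was highest for 6 of them.

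Each injured group was compared with NI to ask whether transcripts of oligodendrocytes are carried by the sorted cells to the same degree after injury. A single call was made. *Mal* was lower at 2 weeks after FT, and 0 of 8 transcripts were called lower in the other 5 comparisons. None of the 8 was called higher in any of the 6. A call needed an adjusted p-value under 0.05 (limma, adjusted by Benjamini-Hochberg across the 16810 genes) together with a 2-fold change or more, the criterion of the study. By that rule 4.31%, 0.482% and 0.797% of all genes were lower in the HS groups, in order of time, and 4.09%, 1.2% and 1.36% in the FT groups. Genes called higher made up 9.08%, 1.7% and 2.43% after HS and 8.14%, 2.86% and 3.53% after FT. At an unadjusted p under 0.05 (limma), 2, 2 and 4 of the 8 were lower in the HS groups, in order of time, and 2, 1 and 3 in the FT groups. The same held for 18.7%, 5.25% and 6.29% of all genes after HS and for 17.3%, 7.61% and 7.2% after FT. On the recovered reads, edgeR's quasi-likelihood test and DESeq2 called 0 of the 8 in all 6 comparisons, and edgeR's likelihood ratio test called *Mal* at 72 h after HS and at 2 weeks after FT. The share of all genes called by the likelihood ratio test is not given here. The median log2 change of the 8 lay between -0.91 (HS 2 weeks) and -0.20 (FT 1 week), while the median of all genes lay between -0.11 and 0.02. Without the replicate 1 library of the group, the median of the 8 at 2 weeks went from -0.91 to -0.36 after HS and from -0.73 to -0.37 after FT.

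*Mal*, a proteolipid of compact myelin that takes part in sorting membrane to the sheath (chromosome 2 of GRCm38, 127633226 to 127656695, minus strand), was at 64.0, 40.0 and 27.0 CPM in NI. At 72 h it was at 25.5, 9.52 and 10.05 CPM after HS, and at 19.5, 8.47 and 19.4 CPM after FT. At 1 week it was at 12.3 and 11.3 CPM after HS, and at 20.9, 17.2 and 15.5 CPM after FT. Levels at 2 weeks were 3.59, 23.3 and 22.2 CPM after HS and 2.06, 25.0 and 11.1 CPM after FT. Every one of the 17 injured libraries was below every NI library, a pattern shown by 2.3% of all genes. It is nonetheless a narrow margin, since the highest injured library (HS 72 h replicate 1) and the lowest NI library (replicate 3) differed by little. The log2 change from NI was -2.19 at 2 weeks after FT (standard error 0.65, limma adjusted p = 0.0397). It lay between -1.76 and -1.19 in the other 5 comparisons (limma adjusted p between 0.0783 and 0.36), which are not calls. The call at 2 weeks after FT was lost without NI replicate 1 (-1.87, limma adjusted p = 0.164), NI replicate 2 (-2.21, 0.11), FT 2 weeks replicate 1 (-1.27, 0.294) or FT 2 weeks replicate 3 (-2.36, 0.0615). It was lost as well in a fit to the FT 2 weeks and NI libraries alone (limma adjusted p = 0.0616), while 72 h after HS then passed (limma adjusted p = 0.0048), as did 1 week after HS, 72 h after FT and 1 week after FT. At 2 weeks after HS the change was -1.68, and -0.84 without replicate 1 of that group. Without HS 2 weeks replicate 1, *Mal* was called lower at 72 h after HS (limma adjusted p = 0.0398), and without FT 2 weeks replicate 1 at 72 h after HS (0.0301) and at 72 h after FT (0.0485).

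*Mag*, an adhesion molecule of the innermost myelin layer, next to the axon (chromosome 7, 30899176 to 30914873, minus strand), was at 53.0, 39.4 and 35.3 CPM in NI. At 72 h it was at 30.9, 26.9 and 26.2 CPM after HS and at 23.5, 24.0 and 29.0 CPM after FT. The libraries at 1 week held 24.2 and 23.8 CPM after HS and 27.3, 22.4 and 24.9 CPM after FT, and those at 2 weeks 21.1, 26.3 and 40.6 CPM after HS and 21.7, 34.0 and 25.4 CPM after FT. In 16 of 17 injured libraries it was below all NI libraries, HS 2 weeks replicate 3 being the exception. Its log2 change lay between -0.79 and -0.56 in all 6 comparisons, and at 2 weeks it was -0.35 after HS and -0.51 after FT when replicate 1 of the group was left out. The adjusted p was under 0.05 at 72 h after FT (-0.71, standard error 0.22, limma adjusted p = 0.0218) and at 1 week after FT (-0.75, standard error 0.22, limma adjusted p = 0.0427), both under the 2-fold limit. Of all genes, 9.33% and 1.92% were lower at that adjusted p in these comparisons, at any fold. *Mag* was also the steadiest of the 8. The SD of its log2 level within groups was 0.27, at percentile 53.4 of genes of like level, and HS 1 week had 24.0 ± 0.297 CPM (SD, n = 2). The scaling of the columns decided whether it passed 2-fold, and the deposited columns summed to 777426 to 830481 CPM in NI and to 878070 to 1202186 CPM after injury. With every column scaled to 1 total, *Mag* was called lower in 5 of 6 comparisons (-1.18 at the lowest). The median of all genes, however, then moved to between -0.52 and -0.17. Of all genes, 2.42% to 22.7% were then called in either direction over the 6 comparisons, against 2.18% to 13.4% as deposited. Relative to the median of all genes, *Mag* was -0.83 to -0.55 with that scaling and -0.81 to -0.47 as deposited.

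*Mog*, a glycoprotein of the outer myelin surface (chromosome 17, 37010743 to 37023398, minus strand), was at 62.9, 29.0 and 17.9 CPM in NI. In HS libraries it stood at 29.0, 15.5 and 5.95 CPM (72 h), 9.94 and 11.1 CPM (1 week) and 1.56, 27.6 and 18.1 CPM (2 weeks). In FT libraries it stood at 19.2, 15.2 and 14.1 CPM (72 h), 11.3, 16.6 and 15.2 CPM (1 week) and 2.62, 32.5 and 9.24 CPM (2 weeks). In 12 of 17 injured libraries *Mog* was below all NI libraries, and it was in none above them. The log2 change was between -1.70 and -0.98, with standard errors of 0.77 to 0.87 and limma adjusted p between 0.229 and 0.496. Without replicate 1 of the group, the change at 2 weeks went from -1.67 to -0.51 after HS and from -1.70 to -0.86 after FT, and without NI replicate 1 the changes at 72 h were -0.68 after HS and -0.50 after FT. *Mog* spread 12.4-fold between replicates at 2 weeks after FT and 17.7-fold at 2 weeks after HS.

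*Cldn11*, the claudin of tight junctions between myelin layers (chromosome 3, 31149920 to 31164324, plus strand), was at 63.6, 30.1 and 23.5 CPM in NI. The HS libraries had 65.4, 18.0 and 15.4 CPM at 72 h, then 18.0 and 15.0 CPM at 1 week and finally 1.09, 34.8 and 30.2 CPM at 2 weeks. The FT libraries had 38.1, 35.1 and 31.2 CPM at 72 h, then 30.4, 27.4 and 33.4 CPM at 1 week and finally 6.08, 48.2 and 16.1 CPM at 2 weeks. All FT libraries at 72 h and 1 week lay within the NI range, and the log2 change there was -0.04 and -0.23. The HS groups had -0.43, -1.09 and -1.59, in order of time (limma adjusted p = 0.722, 0.722 and 0.353). The last of these rests on HS 2 weeks replicate 1, without which it was -0.13. At 2 weeks after FT the change was -1.05, and -0.35 without FT 2 weeks replicate 1. *Cldn11* had the widest spread within groups of the 8, with an SD of 1.26 on the log2 scale, at percentile 99.8 of genes of like level.

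*Cnp*, an enzyme of the cytoplasmic channels of myelin (chromosome 11, 100574904 to 100591729, plus strand), was at 196, 152 and 111 CPM in NI. After HS the 72 h libraries held 146, 125 and 100.2 CPM, those at 1 week 124 and 113 CPM and those at 2 weeks 75.3, 96.6 and 138 CPM. After FT the 72 h libraries held 141, 132 and 138 CPM, those at 1 week 137, 124 and 155 CPM and those at 2 weeks 95.8, 154 and 95.2 CPM. Of the 17 injured libraries, 5 were below all NI libraries and none was above them. Log2 changes were between -0.57 and -0.11 (limma adjusted p between 0.204 and 0.873). At 2 weeks, -0.57 after HS and -0.41 after FT became -0.37 and -0.30 with replicate 1 of the group left out. The exons of *Cnp* share 154 bases with those of *Dnajc7* on the other strand, which had a mean of 127 CPM. The library kit does not mark strand, so reads from the shared bases cannot be told apart.

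*Mbp*, the basic protein that joins the cytoplasmic faces of compact myelin (chromosome 18, 82475146 to 82585637, plus strand), was at 779.9, 868 and 486 CPM in NI. In HS libraries it stood at 1232, 413 and 333 CPM (72 h), 1393 and 844 CPM (1 week) and 312, 582 and 698 CPM (2 weeks). In FT libraries it stood at 543, 888 and 824 CPM (72 h), 565, 1158 and 1189 CPM (1 week) and 265, 1604 and 1028 CPM (2 weeks). Injured libraries lay on both sides of NI, with 7 of 17 above all NI libraries and 4 below them. The log2 change was 0.65 at 1 week after HS (95% interval -0.57 to 1.87) and 0.41 at 1 week after FT (-0.68 to 1.51), and it lay between -0.46 and 0.14 in the other 4 comparisons. At 2 weeks after FT, 0.14 became 0.89 once replicate 1 of that group was left out, and at 2 weeks after HS -0.46 became -0.12. The same gene also gives golli transcripts, which are known from immune cells, and the deposited values per gene cannot separate them from the myelin forms.

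*Mobp*, another basic protein of compact myelin (chromosome 9, 120149707 to 120181484, plus strand), followed *Mbp* closely. It was at 44.2, 40.7 and 22.3 CPM in NI. The HS libraries had 59.5, 21.4 and 14.1 CPM at 72 h, then 55.0 and 33.8 CPM at 1 week and finally 11.5, 27.1 and 22.0 CPM at 2 weeks. The FT libraries had 31.8, 42.9 and 37.2 CPM at 72 h, then 21.3, 48.6 and 51.5 CPM at 1 week and finally 9.45, 61.4 and 37.3 CPM at 2 weeks. Of the 17 injured libraries, 5 were above all NI libraries and 6 below them. Log2 changes were between -0.83 and 0.33 (limma adjusted p between 0.502 and 0.938). Leaving out replicate 1 of the group moved 2 weeks after HS from -0.83 to -0.48 and 2 weeks after FT from -0.28 to 0.48.

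*Sox10*, the transcription factor that drives myelin genes in oligodendrocytes and Schwann cells (chromosome 15, 79154908 to 79165240, minus strand), was at 3.93, 4.12 and 2.40 CPM in NI. After HS the 72 h libraries held 2.38, 0.942 and 1.44 CPM, those at 1 week 2.18 and 3.73 CPM and those at 2 weeks 0.156, 2.14 and 3.86 CPM. After FT the 72 h libraries held 2.62, 3.51 and 1.25 CPM, those at 1 week 4.97, 1.47 and 3.31 CPM and those at 2 weeks 0.749, 3.66 and 1.60 CPM. These levels rest on few reads, from 1 read in HS 2 weeks replicate 1 to 72 in the library with most. While 10 of 17 injured libraries were below all NI libraries, 1 was above them, FT 1 week replicate 1. The log2 change was between -0.99 and -0.18 (limma adjusted p between 0.201 and 0.946). At 2 weeks it went from -0.99 to -0.20 after HS and from -0.81 to -0.40 after FT when replicate 1 of the group was left out.

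**Figure D1:**
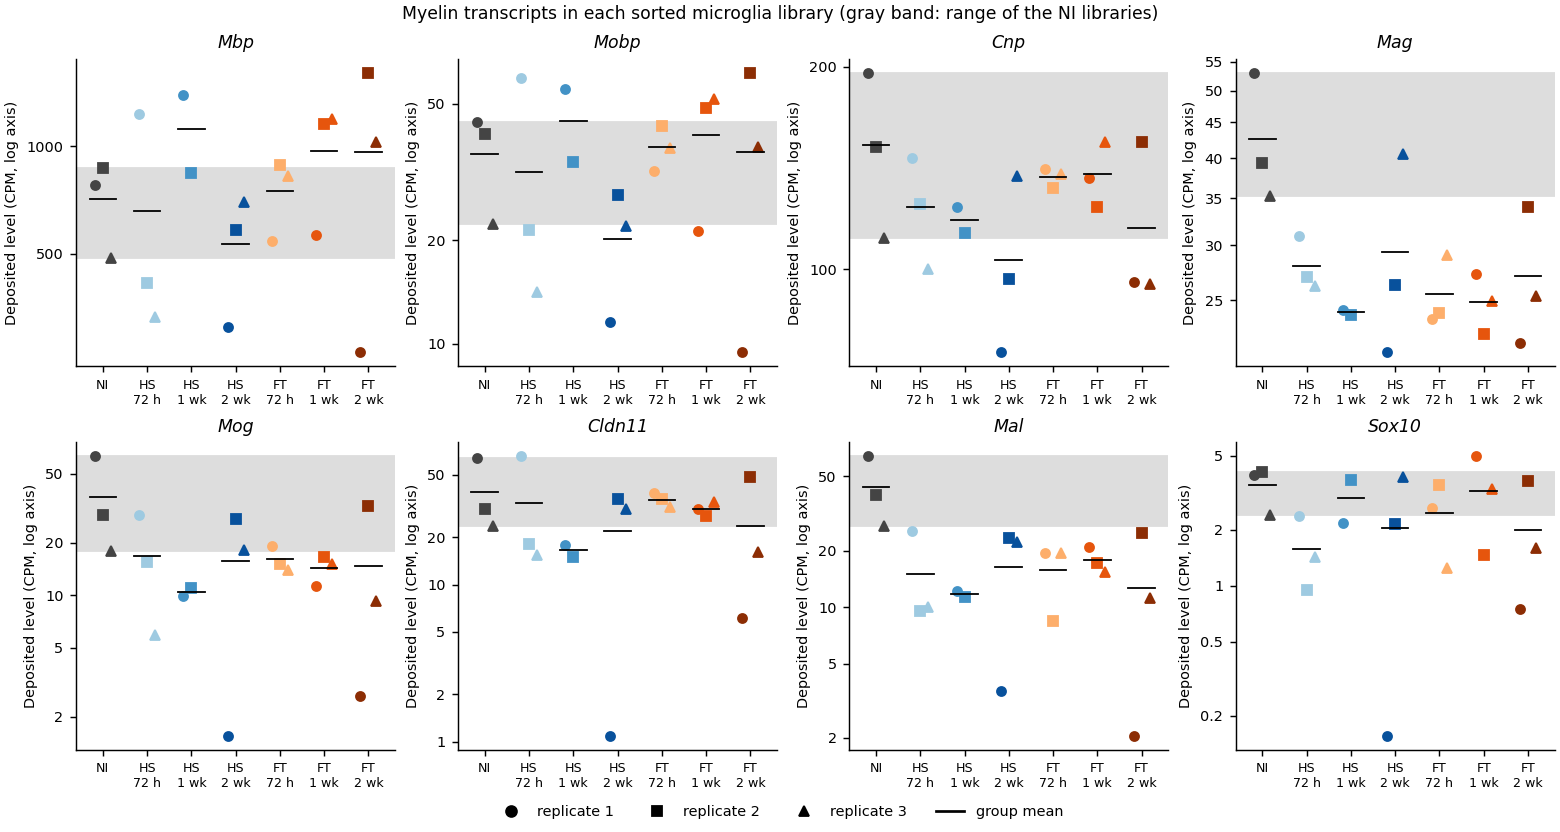
Deposited level (CPM, log axis) of each myelin transcript in all 20 libraries, by group. Points are libraries, with the replicate number as their shape, the line is the group mean and the gray band is the range of the 3 NI libraries. All 17 injured points of *Mal* lie under the band, those of *Mbp* and *Mobp* lie on both sides of it, and the replicate 1 libraries at 2 weeks are the lowest for most transcripts.

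The libraries of a group can also be read by whether they overlap with NI. Every library of the injured group was under every NI library for 3 of 8 transcripts at 72 h after HS (*Mag*, *Mal* and *Sox10*), where 24.9% of all genes did the same. At 1 week after HS these were 4 (*Mog*, *Mag*, *Cldn11* and *Mal*, with 17.1% of all genes) and at 2 weeks 1 (*Mal*, with 10.3%). After FT they were 2 at 72 h (*Mag* and *Mal*, with 22.7%), 3 at 1 week (*Mog*, *Mag* and *Mal*, with 10.1%) and 2 at 2 weeks (*Mag* and *Mal*, with 13.3% of all genes). *Mal* is the only 1 of the 8 in all 6 groups.

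**Figure D2:**
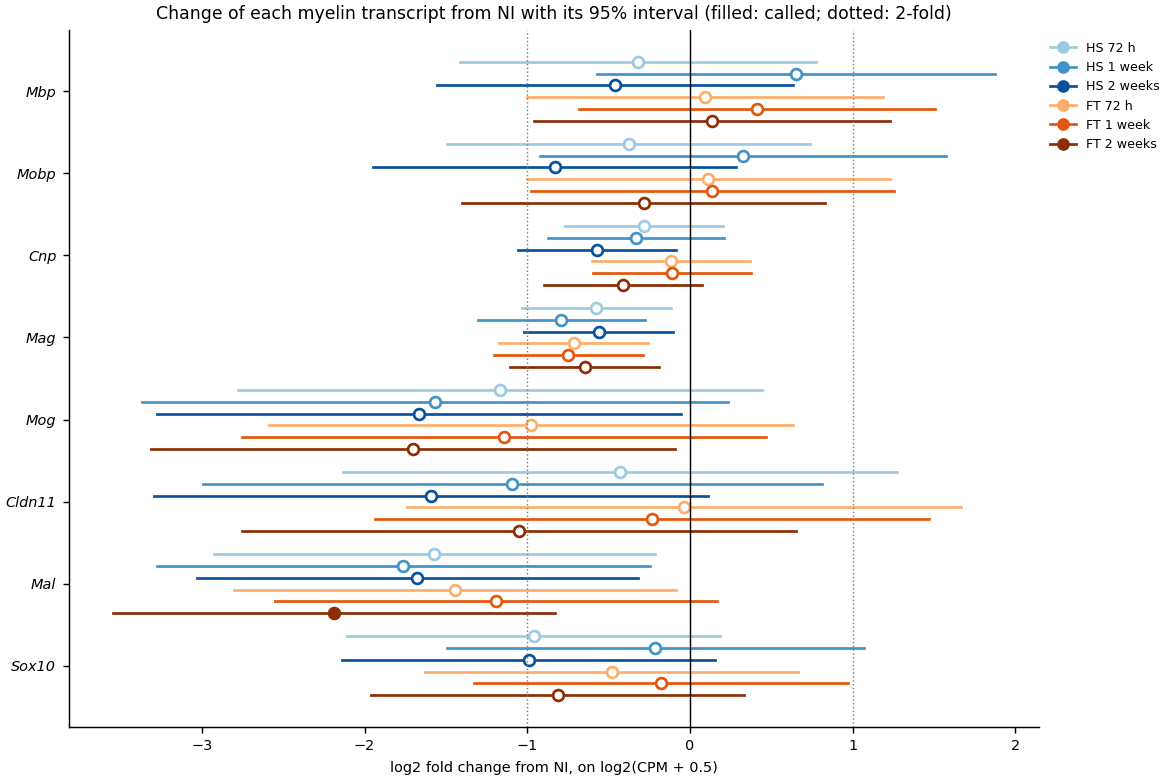
Log2 fold change of each myelin transcript from NI, on log2(CPM + 0.5), with its 95% interval from limma, for 6 injured groups. Filled points passed the call and dotted lines mark a 2-fold change, and *Mal* at 2 weeks after FT (-2.19) is the only filled point.

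Severity and time were then compared directly, to ask whether the injuries or the stages differ from each other. FT minus HS at the same time was called for 0 of 8 transcripts at 72 h, 1 week and 2 weeks, and 0.0% of all genes were called at any of these times. Over the 24 differences the log2 values lay between -0.51 (*Mal* at 2 weeks) and 0.86 (*Cldn11* at 1 week), and 0 of 24 had an unadjusted p under 0.05 (limma). The same held for 3.0%, 4.31% and 2.61% of all genes at 72 h, 1 week and 2 weeks, that is, they had such a p. For *Mal* at 2 weeks, the 95% interval of FT minus HS ran from -1.87 to 0.84. Between times, 0 of 8 transcripts were called within HS or within FT. Of all genes, 6.03% changed from 72 h to 1 week, 4.74% from 72 h to 2 weeks and 0.0119% from 1 to 2 weeks after HS. After FT these were 3.44%, 3.81% and 0.0714%. The 48 log2 differences between times lay between -1.16 and 0.97, and 0 of 48 had an unadjusted p under 0.05 (limma). In the same order of times, 26.8%, 25.6% and 4.69% of all genes had such a p after HS. After FT 19.9%, 19.5% and 4.6% did. edgeR and DESeq2 on the recovered reads also called 0 of 8 in each of these 9 comparisons. With this spread such differences were not detectable, which does not show that levels were alike.

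The scaling of a column cancels in the ratio between 2 transcripts of 1 library, apart from the 0.5 CPM added for the test. All 28 pairs were tested between the 3 NI and the 17 injured libraries, by an exact permutation test, two-sided, of the difference in mean log2 ratio, with Benjamini-Hochberg adjustment over the 28. After this adjustment 3 pairs passed, each with *Mal* as the lower partner, and 10 of 28 had an unadjusted p under 0.05. The ratio of *Mbp* to *Mal* was 12.2, 21.7 and 18.0 in NI. In HS libraries the ratio was 48.2, 43.4 and 33.1 (72 h), 114 and 74.6 (1 week) and 87.0, 25.0 and 31.4 (2 weeks). In FT libraries the ratio was 27.9, 105 and 42.5 (72 h), 27.0, 67.4 and 76.9 (1 week) and 128, 64.2 and 92.2 (2 weeks). It was above all NI libraries in 17 of 17 injured libraries, and the mean log2 ratio was 1.68 higher (exact permutation p = 0.00175, adjusted 0.0246).

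The ratio of *Cnp* to *Mal* was 3.06, 3.79 and 4.11 in NI and between 4.15 and 46.5 in injured libraries, with 17 of 17 above NI (log2 difference 1.33, exact permutation p = 0.00175, adjusted 0.0246). *Mobp* to *Mal* was 0.691, 1.02 and 0.826 in NI and between 0.989 and 5.07 after injury, and 16 of 17 libraries were above NI (log2 difference 1.45, exact permutation p = 0.00351, adjusted 0.0327). *Mog* to *Mal*, in contrast, had a log2 difference of 0.27 (exact permutation p = 0.363, adjusted 0.484), with ratios of 0.983, 0.723 and 0.663 in NI and 8 of 17 injured libraries above them. *Mbp* to *Mog* differed by 1.41, with 14 of 17 above NI (exact permutation p = 0.0175, adjusted 0.0702), and did not pass. Neither did *Cldn11* to *Mal*, at 0.91 with 16 of 17 above NI and 1 below (exact permutation p = 0.0649, adjusted 0.165). Of *Mbp* to *Mobp* the ratio was 17.6, 21.3 and 21.8 in NI and between 17.05 and 31.7 after injury (log2 difference 0.23, exact permutation p = 0.112, adjusted 0.262). The smallest p these 1140 splits allow is 0.000877. With any 1 NI library left out, 171 splits remain and 0 pairs passed, since at least 4 pairs would have to tie at the smallest possible p, 0.00585. The log2 difference of *Mbp* to *Mal* was then between 1.45 and 1.87. Without HS 2 weeks replicate 1 the count was 5, and without HS 2 weeks replicate 2 it was 7, the 3 pairs that passed over all libraries among them in both.

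**Figure D3:**
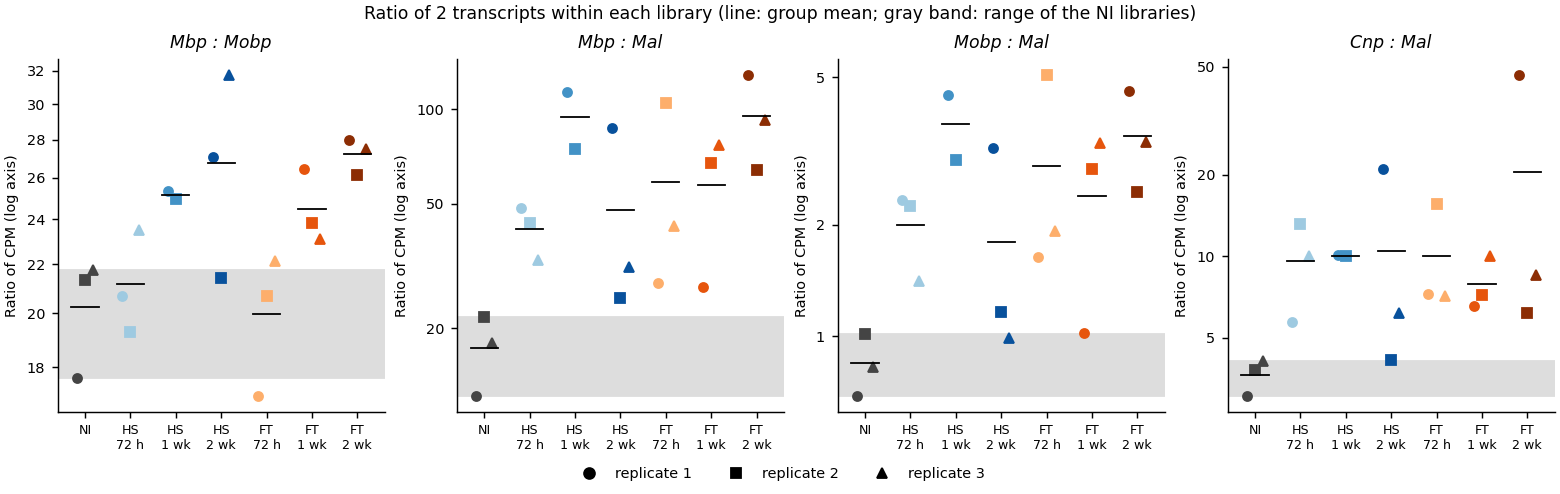
Ratio of the CPM values of 2 transcripts within each library (log axis), by group, with replicates as shapes, the group mean as a line and the range of the 3 NI libraries as a gray band. *Mbp* to *Mobp* ran from 17.05 to 31.7 over all libraries, while *Mbp* to *Mal* and *Cnp* to *Mal* were above the band in 17 of 17 injured libraries and *Mobp* to *Mal* in 16 of 17.

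Across the 20 libraries the 8 transcripts fell into different patterns. These correlations are given as a description, since the points share library and depth and the low libraries at 2 weeks weigh on all of them. On log2(CPM + 0.5), *Mbp* and *Mobp* had the highest correlation of the 28 pairs (Pearson's r = 0.96, 20 libraries). *Mog* stood close to *Cldn11* (r = 0.92) and *Mal* (r = 0.91), whereas *Mag* stood far from *Mbp* (r = 0.22) and *Mobp* (r = 0.26). Within groups, on deviations from group means, *Mag* had r = 0.58 with *Mbp* and 0.52 with *Mobp*, and the lowest of the 28 was *Mobp* with *Sox10* (0.48). Correlation with the log2 number of reads was at most 0.40 (*Cnp*).

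**Figure D4:**
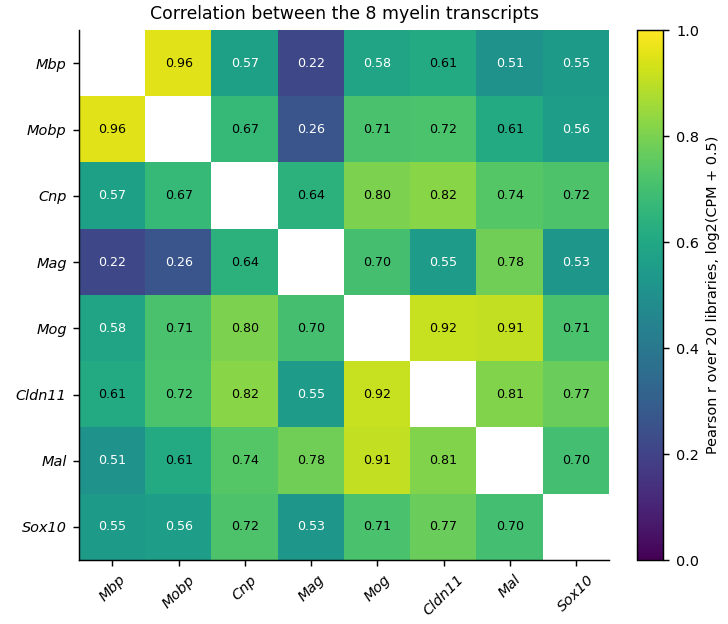
Pearson's r between each pair of the 8 transcripts over 20 libraries, on log2(CPM + 0.5), as numbers and color. *Mbp* and *Mobp* (0.96) are the closest, followed by *Mog* with *Cldn11* (0.92) and *Mog* with *Mal* (0.91). *Mag* with *Mbp* has the lowest r (0.22), which is 0.58 on deviations from group means.

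Among 14051 genes with a mean of at least 1 CPM, those most like *Mbp* and *Mobp* included *Bcas1* (r = 0.97 with *Mbp* and 0.96 with *Mobp*), a gene of newly myelinating oligodendrocytes, and *Plekhb1* (0.89 and 0.91). *Mog* was most like *Sept4* (0.97), a septin, and *Car2* (0.96), the carbonic anhydrase of oligodendrocytes. *Mal* was most like *Aplp1*, *Sept4* and *Edil3* (0.95, 0.94 and 0.94), and *Cldn11* like *Apod*, *Tubb4a* and *Dbndd2* (0.93, 0.93 and 0.92). *Cnp* was most like *Dbndd2*, *Fez1* and *Tubb4a* (0.90, 0.86 and 0.85). The 5 genes most like *Mag* were *Stmn3*, *Ndrg4*, *Sult4a1*, *Ptn* and *Itih3* (r between 0.84 and 0.89), none of which is on the oligodendrocyte lists used here. *Sox10* was most like *Kcna1*, *Tmem151a* and *Aplp1* (0.88, 0.84 and 0.84), the first of these being a potassium channel of axons.

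Promoters are shown as a description, and whether like letters go with like levels was not tested. *Mal* is among those printed as the transcript in the 3 ratios that passed. RefSeq sequences (GRCm38.p6) were given for 6 of the 8 genes. *Mbp* and *Sox10* had none, so the window of *Mobp* has no *Mbp* window beside it. The window searched was the 250 bases before the start, on both strands, for the letters ACAAAG and ACAATG, to which SOX factors bind, and CTGGCAC and CTGGTAC, to which the oligodendrocyte factor MYRF binds. The 2 families do not overlap in any window shown. Of 32851 promoter windows of this length, 25.2% held a SOX match and 5.93% a MYRF match. *Mobp* held CTTTGT, which is ACAAAG on the other strand, 6 times, more often than any other of the 32851 windows. *Mag* has 3 starts in the table, of which the farthest upstream is shown. In the windows shown, *Cnp* and *Mag* held 1 match of each family and *Mog* 1 MYRF match, while *Mal* held none. The window of *Cldn11*, not printed, held none either. Stretches that belong to the gene in GENCODE are left out, capitals mark the matches, and each sequence runs 5′ to 3′ on the strand of its gene. A match is a description of letters and not a site.
Mobp (chr9:120149492-120149706, plus strand): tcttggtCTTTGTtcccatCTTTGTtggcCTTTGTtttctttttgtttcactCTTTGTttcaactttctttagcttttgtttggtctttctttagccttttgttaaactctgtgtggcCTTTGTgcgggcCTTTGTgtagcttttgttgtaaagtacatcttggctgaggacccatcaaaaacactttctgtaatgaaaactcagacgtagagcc
Cnp (chr11:100574689-100574903, plus strand): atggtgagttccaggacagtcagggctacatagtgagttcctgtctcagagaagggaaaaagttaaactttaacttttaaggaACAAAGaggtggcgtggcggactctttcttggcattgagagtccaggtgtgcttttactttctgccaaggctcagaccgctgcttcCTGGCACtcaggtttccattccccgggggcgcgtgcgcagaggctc
Mag (chr7:30914923-30915172, minus strand): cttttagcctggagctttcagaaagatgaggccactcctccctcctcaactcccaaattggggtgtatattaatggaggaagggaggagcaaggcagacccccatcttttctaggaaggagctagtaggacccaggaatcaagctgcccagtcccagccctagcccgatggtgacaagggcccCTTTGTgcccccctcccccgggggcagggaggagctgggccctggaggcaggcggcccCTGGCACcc
Mog (chr17:37023399-37023648, minus strand): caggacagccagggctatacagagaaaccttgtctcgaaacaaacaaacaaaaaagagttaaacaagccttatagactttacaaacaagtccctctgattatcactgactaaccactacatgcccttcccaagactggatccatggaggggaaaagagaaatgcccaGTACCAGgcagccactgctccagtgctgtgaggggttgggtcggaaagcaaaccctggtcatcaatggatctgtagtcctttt
Mal (chr2:127656696-127656945, minus strand): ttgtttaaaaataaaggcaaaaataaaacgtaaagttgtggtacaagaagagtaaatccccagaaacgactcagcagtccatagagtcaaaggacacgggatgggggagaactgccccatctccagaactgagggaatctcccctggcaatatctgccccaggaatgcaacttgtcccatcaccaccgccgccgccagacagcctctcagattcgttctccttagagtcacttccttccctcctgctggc

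Other genes of myelin and oligodendrocytes were counted with lists drawn up by function and cell type. Of 21 other genes of the myelin membrane, 3 were called higher and 6 lower in at least 1 comparison with NI, and 12 were not called. Over all genes, 11.2% were called higher and 7.07% lower in at least 1 of these 6 comparisons, the background of this count and of those for the lists that follow. The median log2 change of this list was between -0.95 (HS 72 h) and -0.54 (FT 1 week). *Plp2*, a relative of the MAL family found in many cell types, was at 3.01 ± 0.380 CPM in NI and rose to 49.7 ± 11.5 CPM 72 h past FT (SD, n = 3 each, log2 change 3.82, limma adjusted p = 5.11e-10) and was higher in 6 of 6 comparisons. *Cd9*, a tetraspanin that microglia also express, rose from 1211 ± 102 to 3567 ± 213 CPM at 2 weeks after FT (log2 change 1.56, limma adjusted p = 0.000582), and *Cd9* alone made up 78.7% of the summed level of its list. *Gjc3*, a connexin of oligodendrocytes, fell from 12.03 ± 1.21 to 3.14 ± 0.685 CPM at 72 h after FT (log2 change -1.80, limma adjusted p = 0.000231). *Opalin*, a membrane protein of oligodendrocytes, fell at 72 h after HS (-1.93, limma adjusted p = 0.033), a call lost without NI replicate 1 (-1.53), NI replicate 2 (-2.04), HS 72 h replicate 2 (-1.999) or HS 72 h replicate 3 (-1.31). *Gpm6b*, a membrane glycoprotein of neurons and glia, fell at 2 weeks after FT (-1.88, limma adjusted p = 0.031), which was lost without NI replicate 1 (-1.55), NI replicate 2 (-1.88) or FT 2 weeks replicate 1 (-1.01).

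Among the 14 genes of myelin lipid synthesis and oligodendrocyte enzymes, 0 were called higher and 1 lower, *Fa2h*, which makes the hydroxylated lipids of myelin. It went from 6.10 ± 2.77 CPM to 1.60 ± 0.406 CPM in the FT 72 h group (SD, n = 3 each, log2 change -1.59, limma adjusted p = 0.0193), a call lost without NI replicate 1 (-1.27) or FT 72 h replicate 1 (-1.47). The list's median was between -0.75 and -0.52. Of the 25 cytoskeleton, signalling and stress genes, 2 were called higher, *Gsn* and *Anln*, and 2 lower, *Kif5a* and *Prr18*. *Gsn*, which severs actin, rose at 72 h after FT (1.55, limma adjusted p = 0.000511), and *Anln*, also a gene of dividing cells, at 72 h after HS (1.49, limma adjusted p = 0.000336, and 0.99 with columns scaled to 1 total). *Kif5a*, a motor protein of neurons, fell at 1 week after FT (-1.66, limma adjusted p = 0.0127), which was lost without NI replicate 1 (-1.43) or NI replicate 2 (-1.52). *Trf*, transferrin, made up 70.0% of the summed level of this list.

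Of 9 oligodendrocyte transcription factors in the table, 2 were called lower and 0 higher, and their median was between -0.78 and -0.29. *Olig1* fell from 7.43 ± 2.36 to 2.10 ± 1.08 CPM at 72 h after HS (SD, n = 3 each, log2 change -1.66, limma adjusted p = 0.0235), a call lost without NI replicate 1 (-1.44), NI replicate 2 (-1.67) or HS 72 h replicate 2 (-1.33). *Olig2* fell from 2.43 ± 0.195 to 0.904 ± 0.272 CPM (SD, n = 3 each, log2 change -1.08, limma adjusted p = 0.0207), which was lost without NI replicate 1 (-1.06), NI replicate 2 (-1.04) or HS 72 h replicate 3 (-0.92). Among 8 genes of oligodendrocyte precursors, 1 was called higher and 2 lower, and their median was between -0.53 (HS 72 h) and 0.07 (FT 1 week). *Cspg4*, the NG2 proteoglycan, rose from 2.88 ± 0.430 CPM to 51.6 ± 26.4 CPM at 2 weeks after FT (SD, n = 3 each, log2 change 3.84, limma adjusted p = 2.66e-07) and was higher in 6 of 6 comparisons. Without FT 2 weeks replicate 1 its change was 3.45. The summed level of the precursor genes, of which *Cspg4* made up 60.2%, was highest in HS 2 weeks replicate 1 (100.1 CPM) and FT 2 weeks replicate 1 (90.9 CPM), the libraries with the lowest sums of the 8 myelin transcripts. This sum does not stand for the list. At 2 weeks the list's median change was -0.12 after HS and -0.40 after FT, with 4 and 5 of the 8 genes below 0. Whether precursor cells differed in these libraries was not tested. *Ptprz1*, a phosphatase of precursors and astrocytes, fell at 2 weeks after FT (-1.38, limma adjusted p = 0.00625, and -1.16 without NI replicate 1, where the call was lost). Of 7 genes of Schwann cells and peripheral myelin in the table (median between -0.48 and 0.15), 0 were called higher and 1 lower, *Egr2*, a transcription factor that macrophages also express. *Egr2* fell at 1 week after FT (-2.13, limma adjusted p = 0.0165), and lost the call without NI replicate 2 (-1.93), NI replicate 3 (-1.97), FT 1 week replicate 2 (-1.94) or FT 1 week replicate 3 (-1.88).

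Markers of neurons, astrocytes, endothelium and microglia moved too, and their part in the changes of the myelin transcripts was not tested. Of 13 neuron markers, 5 were called lower and 0 higher, and their sum was 57.9 to 95.6 CPM in NI and 19.9 to 52.0 CPM after injury, with no overlap. *Snap25*, a synaptic protein, fell from 29.7 ± 9.001 to 3.08 ± 1.40 CPM in the FT 72 h group (SD, n = 3 each, log2 change -3.13, limma adjusted p = 1.78e-05). Of 12 astrocyte markers, 9 were called lower and 2 higher, with sums of 551 to 1042 CPM in NI and 185 to 789.8 CPM after injury. *Slc1a2*, a glutamate transporter, fell from 113 ± 34.5 to 11.2 ± 6.07 CPM at 2 weeks after FT (log2 change -3.41, limma adjusted p = 3.44e-05), whereas *Gfap*, the filament of reactive astrocytes, rose from 45.2 ± 14.6 to 321 ± 58.3 CPM at 72 h after FT (log2 change 2.86, limma adjusted p = 1.73e-06). Of 8 endothelium markers 1 was called higher (*Flt1*) and 1 lower (*Pecam1*), and of 10 microglia markers 1 higher (*Fcrls*) and 2 lower (*Tmem119* and *P2ry12*). None of the markers of neurons, astrocytes, endothelium or microglia was at 3 reads or fewer in every library of a group.

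**Figure D5:**
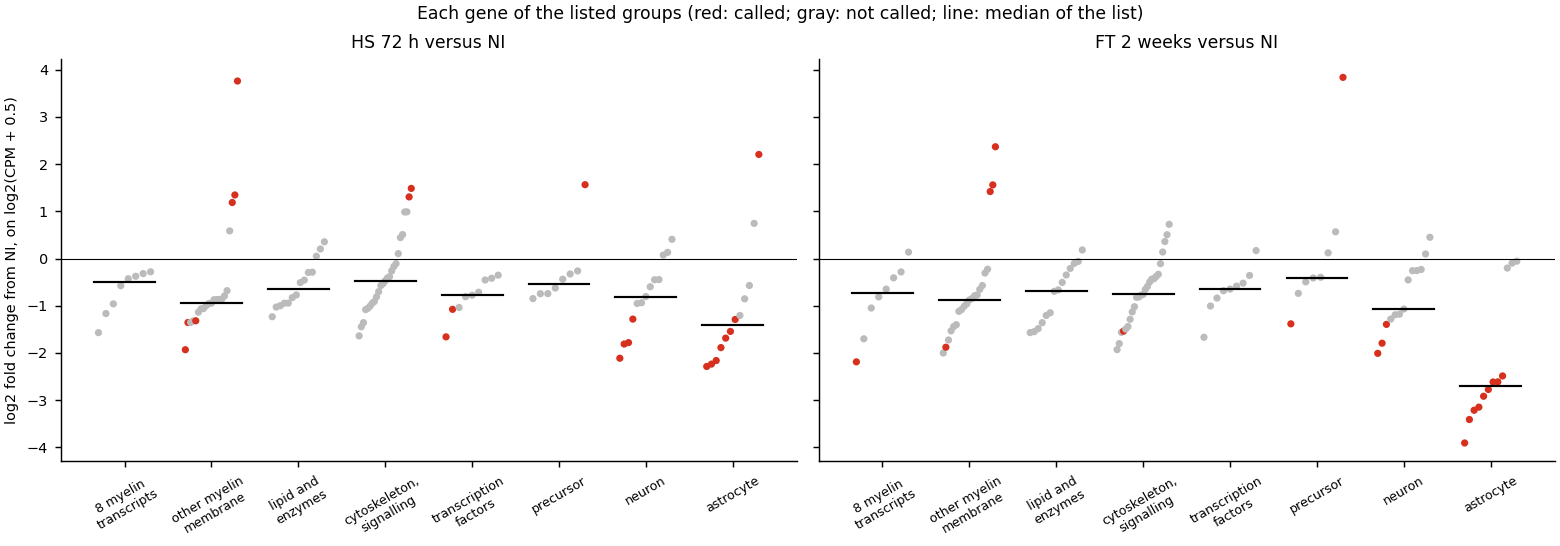
Log2 fold change from NI, on log2(CPM + 0.5), of every gene of 8 lists at 72 h after HS and at 2 weeks after FT. Each point is a gene, red where it was called, and the line is the median of the list. At 2 weeks after FT the 8 myelin transcripts hold 1 red point (*Mal*, -2.19), the precursor genes hold *Cspg4* at 3.84 and the astrocyte markers hold 9 that were lower.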

How the data were processed

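Polyadenylated RNA of sorted microglia was sequenced in 20 libraries of 7 groups. Per the labels and the study's methods, the authors made SMARTer Ultra Low cDNA and Nextera libraries, mapped reads with TopHat2 2.0.9 to mm10 (GRCm38), counted them per gene with HTSeq 0.5.4p3, filtered genes on low counts and normalised by library size with edgeR 3.3.6. The deposited signal is a normalised count, which behaved as CPM with library sizes multiplied by edgeR factors. All 336200 values (100.0%) were whole multiples of 1 read within 0.001 of a step, so depth and whole reads could be recovered. Over the comparisons with NI, edgeR's quasi-likelihood test on these reads called 370 to 2842 genes and limma 367 to 2250.

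log2(CPM + 0.5) was fitted with limma 3.58.1 (intensity trend, 1 mean per group, all 20 libraries, Benjamini-Hochberg over 16810 genes). Group numbers of replicates come from the labels. The myelin transcripts and the gene lists were chosen with earlier results of these data known. All 8 transcripts are named. Of the other lists, called genes were eligible up to 3 a list and direction, the largest change first, and of these some are given by count or name only. Beyond this rule, *Dnajc7* is described for its overlap and was chosen after its values were seen. Some genes are not reported here. Likeness is Pearson's r, and the 5 highest were kept. Alternatives were another constant (0.1 or 1 CPM), a filter (1 CPM or more in 2 samples or more), a fit to the groups compared alone, median-of-ratios and quantile scaling, columns scaled to 1 total, no fold limit, a replicate block, edgeR 4.0.16, DESeq2 1.42.0 and leaving out each library. Fits were tested on simulated counts. Ratios were tested by exact permutation (scipy 1.17.1). Exon lengths and positions are from GENCODE on GRCm38. Intervals cover counting error or replicate spread only.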

Additional observations from a re-analysis of the deposited data

How the results depend on the processing

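No transcript called lower in one setting was called higher in another. Over 1584 alternative values of the 8 transcripts against NI, 1519 kept direction and side of the threshold, 32 changed sign with no call in either setting, 24 gained a call and 9 lost it. All 9 belong to 1 result, *Mal* at 2 weeks after FT, the only call. The 1519 therefore mostly repeat the absence of a call and say little about how firm that call is. Of the calls against NI, the fit to the 2 groups alone gave 1 in HS 72 h, 3 in HS 1 week (*Cldn11*, *Mal* and *Mog*), 1 at 72 h and 1 at 1 week after FT, and 0 at 2 weeks after FT. The share of all genes called in that fit is not given here, so its counts are not read as a result about the 8 transcripts. With columns scaled to 1 total, 3 were called lower at 72 h after HS (*Mag*, *Mal* and *Sox10*). At 1 week after HS 1 was called lower, and the FT groups had 2, 1 and 2, in order of time. In these 5 comparisons 22.7%, 2.42%, 19.9%, 5.39% and 6.58% of all genes were called in either direction. The share called lower is not given here for this scaling. Quantile scaling and edgeR's likelihood ratio test each gave 1 at 72 h after HS, where the share of all genes is not given here. No fold limit gave 1 at 72 h and 1 at 1 week after FT (*Mag*). By that rule 9.33% and 1.92% of all genes were lower. At 2 weeks after FT, edgeR's quasi-likelihood test, DESeq2 and the fit with the replicate block each gave 0 (*Mal*, adjusted p = 0.0719, 0.111 and 0.0514). Deviations from group means of same-numbered libraries had a median correlation of 0.0017 over 57 pairs (-0.43 to 0.44). Between libraries of different number it was 0.00065 over 114 pairs (-0.44 to 0.43). Such a median cannot show whether single libraries were paired. The replicate block changed no other count. Leaving out 1 library gave 0 to 1 calls at 72 h after HS, at 72 h after FT and at 2 weeks after FT, and 0 to 7 pairs of transcripts. Without both 2-week replicate 1 libraries, a setting chosen after seeing the data, HS 72 h, HS 1 week and FT 72 h had 1 call each (*Mal*), 0 at 2 weeks after FT, and 5 pairs passed. The share of all genes called with libraries left out is not given here. Where a call changed, the cause was not tested. Depth limits *Sox10* most, with 1 read in 1 library.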
